A study of Mus musculus with 8 samples.

Results

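The CD40 receptor, the 6 proteins TRAF1 to TRAF6 of the TNF receptor-associated factor family, the kinase NIK (Map3k14) and the ubiquitin ligases cIAP1 (Birc2) and cIAP2 (Birc3) were followed in activated B cells with and without a functional Eif4a1 gene. EIF4A1 is an RNA helicase that helps ribosomes start on mRNA. The genes were chosen by symbol, with no threshold on their values but with earlier results of these data known. All 10 were found among the 53242 genes of the deposited tables. The mRNA of Traf4 rose and that of Traf5 fell in the mutant cells. Traf6, Birc3 and Traf3 were higher and Map3k14 and Cd40 were lower by smaller amounts, of which only that of Traf6 kept an adjusted p under 0.05 in every other fit of the counts and of the TPM that tested against no change, while Traf1, Traf2 and Birc2 did not pass the test.

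CD40 is a receptor of the TNF receptor family that B cells use to receive help from T cells, which carry CD40 ligand. The receptor has no enzyme activity of its own, and its tail recruits TRAF1, TRAF2, TRAF3, TRAF5 and TRAF6 when the ligand clusters it. TRAF6 is known mainly for leading to the kinases of the canonical NF-κB and MAP kinase pathways. TRAF2 and TRAF3, together with cIAP1 and cIAP2, keep NIK unstable in resting B cells, and their loss from this complex lets NIK build up and start the non-canonical NF-κB pathway. TRAF4 is not an established adaptor of CD40 and is read here as a member of the family.

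Splenic B cells of C57BL/6 mice aged 8 to 12 weeks were kept for 24 h on irradiated CD40LB cells in medium with IL4 (40 ng/ml). CD40LB is a fibroblast feeder line that displays CD40 ligand and makes BAFF, a survival factor of B cells. According to the paper, the feeder cells were removed with an antibody and microbeads before RNA was isolated. Control mice were Eif4a1+/+ CD23-cre and 4A1 KO mice were Eif4a1fl/fl CD23-cre, so both carried the transgene, whose Cre acts from the immature B cells of the spleen on. Each genotype had 4 mice, with males as replicates 1 and 3, females as replicates 2 and 4, replicates 1 and 2 in batch A and replicates 3 and 4 in batch B. Replicate 1 of both genotypes had reduced cell viability and was left out of the tests, which rest on 3 libraries per genotype. The values are given for all 8 libraries. No unstimulated cells are among these libraries, so a level here is that of the activated state and says nothing of induction.

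Between 31727557 and 43210858 reads were counted per library, and the lowest count of any of the 10 genes was 598, for Traf5 in 4A1 KO 3. The targeted gene was lower in the 4A1 KO libraries, at 712, 700, 827 and 843 TPM (transcript abundance scaled for transcript length and library size) in replicates 1 to 4 against 974, 933, 1142 and 1136 TPM in control. The log2 fold change was -0.44 (SE 0.05, adjusted p = 1.15e-04), under the size of 0.5 that was needed for a call. The deletion removes exons 2 to 4 and reads of the remaining exons still count, so the level of Eif4a1 is no measure of how many cells were recombined. The summed TPM of 8 B cell markers was 2949 to 3355 in control and 2200 to 2575 in 4A1 KO, without overlap. Of these markers Cd79a, Cd79b and Cd22 fell, with log2 fold changes of -0.67, -0.89 and -0.76, and Ms4a1 was at 0.07. The 11 markers of feeder fibroblasts summed to 3.55 to 15.4 TPM in control and 5.45 to 9.90 TPM in 4A1 KO, with Lum and Postn at 0 counts in every library, and 1 marker (Fn1) rose and 1 (Col3a1) fell. The 7 T cell markers summed to 5.92 to 36.6 TPM in control and 5.23 to 23.3 TPM in 4A1 KO, nearly all of it Thy1, with Cd3g at 0 counts. The 6 myeloid markers summed to 2.77 to 5.32 and 4.02 to 6.35 TPM, with Adgre1 increased. In bulk RNA, fewer cells of a type and less RNA per cell cannot be told apart, and the part of these markers in the differences below was not tested.

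A gene was called when the adjusted p of the edgeR test on counts was under 0.05 and the absolute log2 fold change (4A1 KO against control) was above 0.5. Of the 10 genes, 1 was called increased and 1 decreased, or 20%, where 25.3% of the 14218 genes tested were called, 11.6% increased and 13.7% decreased. The median log2 fold change was -0.01 over the 10 genes, between -0.07 (without replicate 2) and 0.05 (without replicate 3), and 0.01 over all genes tested. By adjusted p alone, 7 of the 10 passed (4 higher, 3 lower), against 53% of all genes, 26.3% higher and 26.7% lower. This number was 4 in the fit without the replicate number as a block, where 35.8% of all genes passed, and 4 with the block when replicate 3 was left out, where 41.7% of all genes passed. On TPM with limma 6 of the 10 passed (3 higher, 3 lower), against 50.7% of 12976 genes, 24.1% higher and 26.6% lower. The TPM of the genotypes did not overlap in the 8 libraries for 5 of the 10 (2 higher, 3 lower), against 35.7% of all genes, 16% higher and 19.7% lower. The share called lay below that of all genes and the shares past the adjusted p or without overlap lay above it. With 10 genes each gene is 10% of the group, so these shares are a description of the group.

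**Figure D1:**
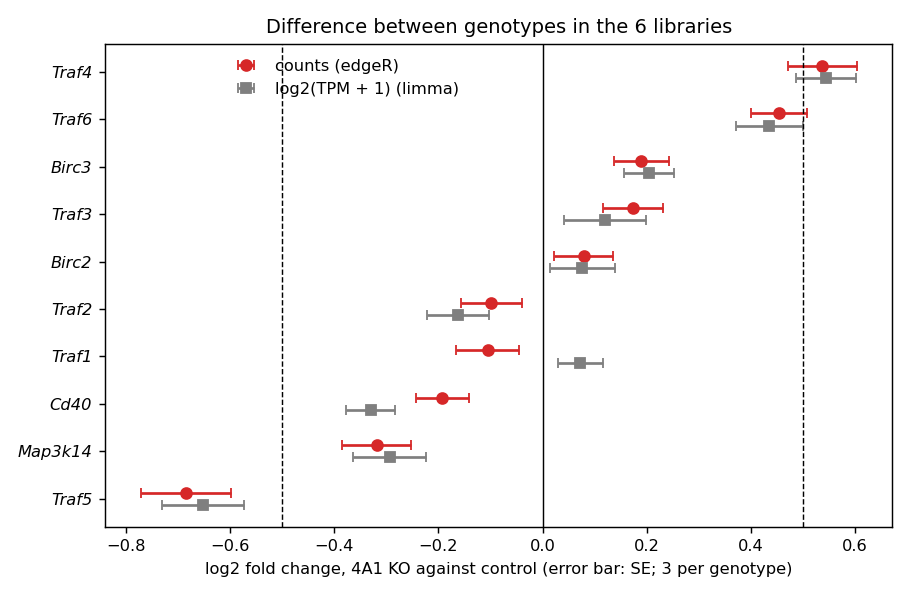
Log2 fold change of each of the 10 genes, 4A1 KO against control, from counts (edgeR) and from TPM (limma on log2(TPM + 1)); the error bars are standard errors, with 3 libraries per genotype, and the dashed lines mark a change of 0.5 either way. On counts Traf4 at 0.54 and Traf5 at -0.69 lie at the ends, and the other genes lie between -0.32 and 0.45.

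In control cells Traf1 had the highest TPM of the 10, at 318 ± 41.0 (SD, n = 4). Cd40 followed at 216 ± 18.1 TPM and Birc3 at 200 ± 13.3 TPM, whose ranges overlapped. Birc2 at 58.1 ± 10.2 and Traf2 at 56.8 ± 3.46 TPM were not separate from each other, nor were Traf6 at 40.9 ± 2.14 and Traf4 at 40.4 ± 4.24 TPM. Traf3 at 28.1 ± 2.67 and Traf5 at 24.9 ± 1.51 TPM also overlapped, and Map3k14 was the lowest at 16.7 ± 1.44 TPM in every control library. Cd40, Traf1 and Birc3 thus formed an upper group that no library of the other 7 genes reached. In 4A1 KO cells the order was Traf1, Birc3, Cd40, Traf4, Birc2, Traf6, Traf2, Traf3, Traf5 and Map3k14. Cd40 lay below Birc3 in all 4 of the 4A1 KO libraries, and above it in 3 of 4 control libraries. The ranges of Traf4 and Birc2, of Birc2 and Traf6, of Traf6 and Traf2, and of Traf5 and Map3k14 overlapped there.

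**Figure D2:**
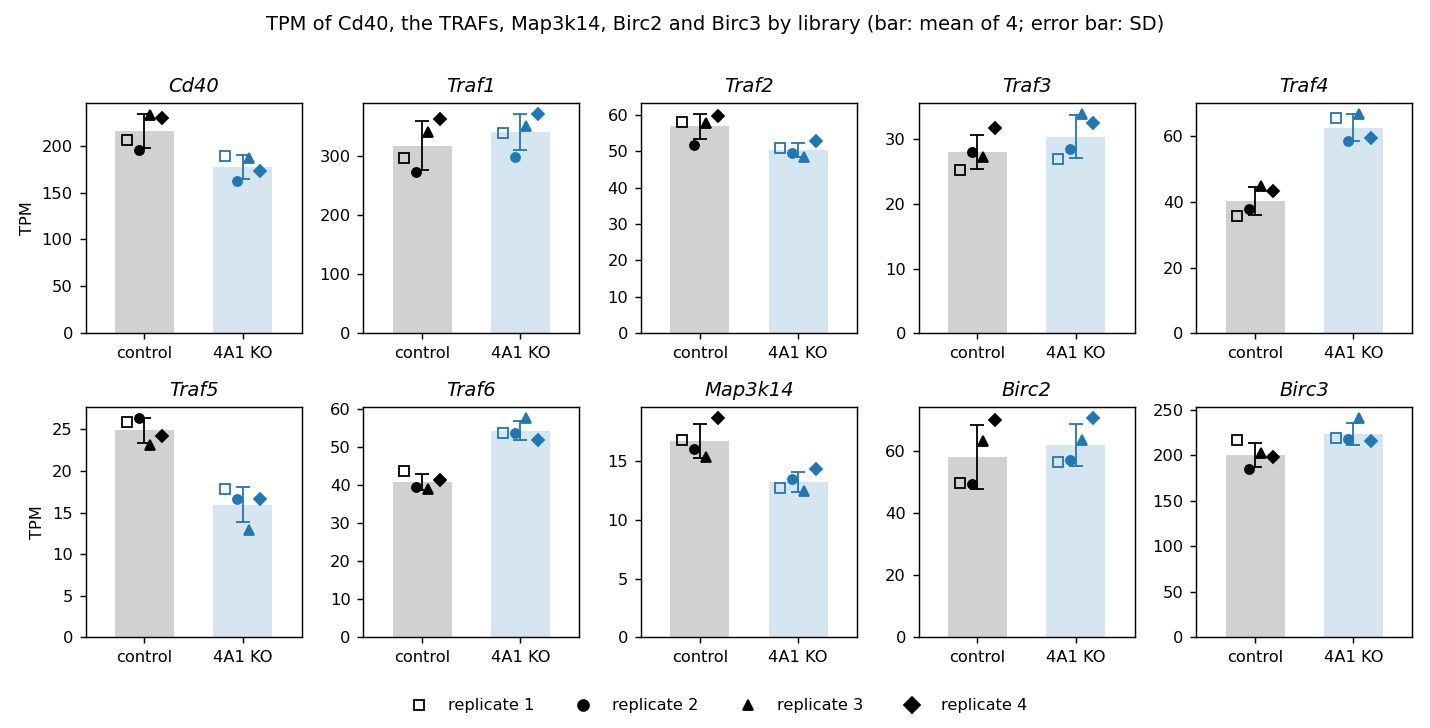
TPM of the 10 genes in each of the 8 libraries, by genotype, with the mean and SD of 4 libraries; each panel has its own linear axis from 0. The genotypes do not overlap for Cd40, Traf4, Traf5, Traf6 and Map3k14, and they do for Traf1, Traf2, Traf3, Birc2 and Birc3.

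Cd40 itself (chromosome 2, 164897544 to 164914868, plus strand, GRCm39; 9 exons in its canonical transcript) was at 206, 195, 232 and 230 TPM in control replicates 1 to 4. In the 4A1 KO libraries it was at 189, 162, 187 and 173 TPM. The highest 4A1 KO library thus lay just under the lowest control library, and each 4A1 KO library was below the control of its number. In CPM (reads scaled for library size but not for length) the ranges overlapped, at 184 to 210 in control and 166 to 186 in 4A1 KO. The log2 fold change was -0.19 on counts (SE 0.05, adjusted p = 0.0113) and -0.33 on TPM (SE 0.05, adjusted p = 0.00278), so Cd40 was lower by either test but on counts not by the size needed for a call. The count result was the less firm: the adjusted p ranged from 0.00612 to 0.106 over 11 other fits, with 0.0625 without the block and 0.106 without replicate 3. Among these 11, DESeq2 with and without shrinkage of the fold change share their adjusted p and are counted separately. Cd40lg, the gene of CD40 ligand, had 0, 6, 1 and 1 reads in control replicates 1 to 4 and 1, 0, 1 and 0 in 4A1 KO, too few to test.

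Of the 10 promoters, taken from 250 bases before to 50 bases from the transcript start, those of Cd40 and Traf3 held a 10-base match to the κB consensus, the sequence that NF-κB dimers bind, when both strands were searched. They are printed because they are the only matches among the 10 and belong to the receptor and to the adaptor that restrains NIK. The capitals mark the match, which starts at position -71 in Cd40 (chr2:164897465-164897490) and at position 19 in Traf3 (chr12:111132786-111132811). Both are printed as read on the strand of the gene in GRCm39. The Cd40 match fits the consensus on the opposite strand too, and the Traf3 match fits it on the strand of the gene only.
Cd40: aggtcctgGGGAAATCCCtgctcagt
Traf3: cggcccgcGGGGATTTCCagcgcgcg
The same search found a match in 4.87% of 21757 promoters of protein-coding genes. A match in this window is a description of the sequence, and no binding was measured.

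Traf4 (chromosome 11, 78048186 to 78056417, minus strand, 7 exons), a family member first found in breast carcinoma, was the gene with the largest increase. Control replicates 1 to 4 were at 35.8, 37.9, 44.7 and 43.2 TPM, and the 4A1 KO replicates at 65.6, 58.6, 66.7 and 59.4 TPM. All 4A1 KO libraries lay above all control libraries, and the difference within numbered pairs was 83.6%, 54.7%, 49.3% and 37.6% of the control TPM. On counts the log2 fold change was 0.54 (SE 0.07, adjusted p = 1.85e-04), and on TPM it was 0.55 (SE 0.06, adjusted p = 0.00113). The adjusted p was between 4.10e-09 and 0.00329 in 11 other fits, but the size was close to the threshold: without replicate 2 it was 0.46 and Traf4 was no longer called. The pair differences in log2 CPM were 0.77 and 0.70 in batch A and 0.45 and 0.45 in batch B. The interaction of genotype with batch was -0.29 (SE 0.10) with an adjusted p of 0.999. Traf4 lies on the chromosome of Eif4a1, 8.48 Mb away.

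Traf5 (chromosome 1, 191725516 to 191776911, minus strand, 11 exons), a relative of TRAF3 and an adaptor of CD40 and of other TNF receptors on lymphocytes, had the largest decrease. Its TPM were 25.9, 26.4, 23.1 and 24.2 in control replicates 1 to 4 and 17.8, 16.6, 12.8 and 16.6 in the 4A1 KO replicates. No 4A1 KO library reached the lowest control library. Within pairs the difference was -31.2%, -37.2%, -44.4% and -31.4% of the control TPM. On counts the log2 fold change was -0.69 (SE 0.09, adjusted p = 2.24e-04), and on TPM it was -0.65 (SE 0.08, adjusted p = 0.00159). Over 11 other fits the log2 fold change lay between -0.77 and -0.59, with adjusted p from 2.97e-08 to 0.00549. These fits left each replicate out in turn or used other scalings and filters, DESeq2, no block or all 8 libraries. Traf5 was called in each of them. When the test was instead against a change larger than 0.5 (glmTreat), neither Traf4 (adjusted p = 0.498) nor Traf5 (adjusted p = 0.0651) passed. Of the canonical Traf5 transcript 4.61% was shared in runs of 50 bases with another transcript, that of the antisense gene Gm26879, which had 0 or 1 reads per library. Gm69520, Gstp-ps and Mir3473c overlap Traf5 on the same strand and were not analysed here.

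Traf6 (chromosome 2, 101508519 to 101533545, plus strand, 8 exons), the adaptor and ubiquitin ligase that also serves the Toll-like and IL1 receptors, was at 43.7, 39.4, 39.1 and 41.4 TPM in control. It was at 53.7, 53.8, 57.7 and 51.8 TPM in 4A1 KO, above control in every library. On counts the log2 fold change of Traf6 was 0.45 (SE 0.05, adjusted p = 1.48e-04), which fell short of the size for a call except when replicate 4 was left out, where it was 0.51. On TPM it was 0.44 (SE 0.06, adjusted p = 0.00308). The threshold of 0.5 falls between the log2 fold changes of Traf4 and Traf6, and whether these differ from each other was not tested.

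Traf3 (chromosome 12, 111132776 to 111233589, plus strand, 12 exons), the inhibitor of NIK, was at 25.3, 28.04, 27.2 and 31.7 TPM in control and 26.9, 28.5, 33.9 and 32.5 TPM in 4A1 KO. The genotypes overlapped, with each 4A1 KO library above the control of its number. The log2 fold change was 0.17 on counts (SE 0.06, adjusted p = 0.0300) and 0.12 on TPM (SE 0.08, adjusted p = 0.244). On counts the adjusted p was under 0.05 in 6 of 11 other fits (range 0.0111 to 0.225). It was over 0.05 without the block, in both DESeq2 fits, without replicate 2 and without replicate 3, the pair with the largest difference. On TPM the log2 fold change of Traf3 was 0.03 without replicate 3.

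Traf1 (chromosome 2, 34831762 to 34851837, minus strand, 7 exons), an adaptor without a RING domain whose own gene is induced by NF-κB, was at 297, 273, 341 and 363 TPM in control. It was at 340, 300, 352 and 372 TPM in 4A1 KO, with overlapping ranges. Its log2 fold change was -0.11 on counts (SE 0.06, adjusted p = 0.175) and 0.07 on TPM (SE 0.04, adjusted p = 0.207), so the sign depended on the measure and neither passed. On counts it was -0.01 without replicate 3 and -0.17 without replicate 2. Traf2 (chromosome 2, 25406097 to 25436987, minus strand, 11 exons), which brings the cIAPs to the receptor, was at 51.8 to 59.7 TPM in control and 48.4 to 52.9 TPM in 4A1 KO. Traf2 had a log2 fold change of -0.10 on counts (SE 0.06, adjusted p = 0.186) and of -0.16 on TPM (SE 0.06, adjusted p = 0.0609). On TPM it passed only when all 8 libraries were used (adjusted p = 0.0348, range 0.0348 to 0.267 over 8 fits). On counts Traf2 lay between -0.16 without replicate 2 and -0.06 without replicate 3.

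**Figure D3:**
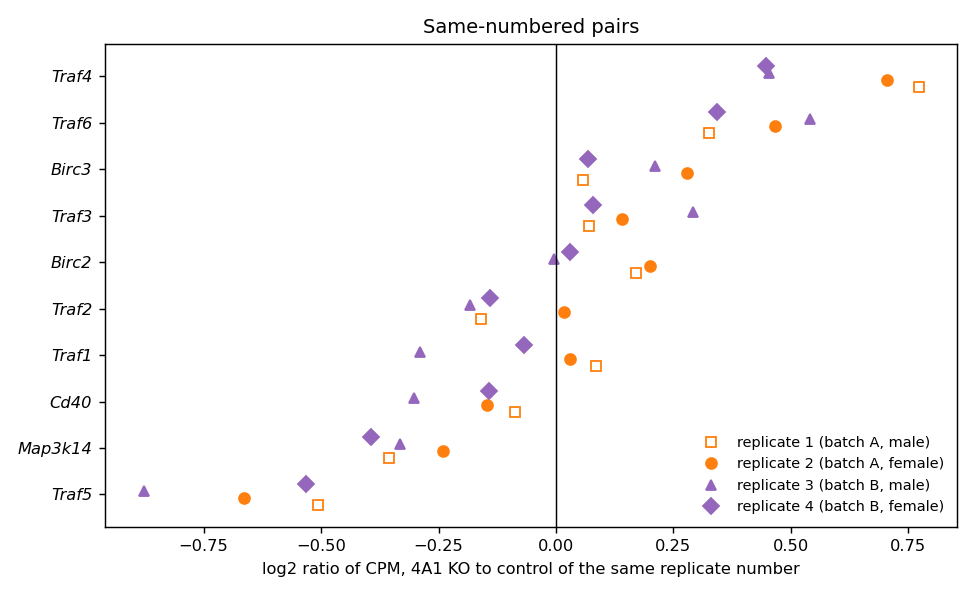
Log2 ratio of CPM, 4A1 KO to control, in each of the 4 pairs of libraries with the same replicate number, for the 10 genes. All 4 pairs lie above 0 for Traf3, Traf4, Traf6 and Birc3 and below 0 for Cd40, Traf5 and Map3k14, and the pairs of Traf1, Traf2 and Birc2 lie on both sides of 0.

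The 6 TRAF mRNAs together summed to 509 ± 47.7 TPM (SD, n = 4) in control cells and to 555 ± 34.5 TPM in 4A1 KO, with overlapping ranges. Traf1 made up 62.4 ± 2.25% of this sum in control and 61.4 ± 1.81% in 4A1 KO. The share of Traf4 was 7.93 ± 0.492% in control and 11.3 ± 0.778% in 4A1 KO, and that of Traf5 was 4.94 ± 0.738% and 2.89 ± 0.471%, without overlap in either case. Traf2 also separated, at 11.2 ± 0.596% in control and 9.10 ± 0.528% in 4A1 KO, although its level did not pass the test. Traf6 was at 8.08 ± 0.871% and 9.81 ± 0.747% and Traf3 at 5.53 ± 0.469% and 5.49 ± 0.457%, both overlapping. The shares sum to a fixed total, so a rise of one gene lowers the shares of the others, and they are given without a test.

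**Figure D4:**
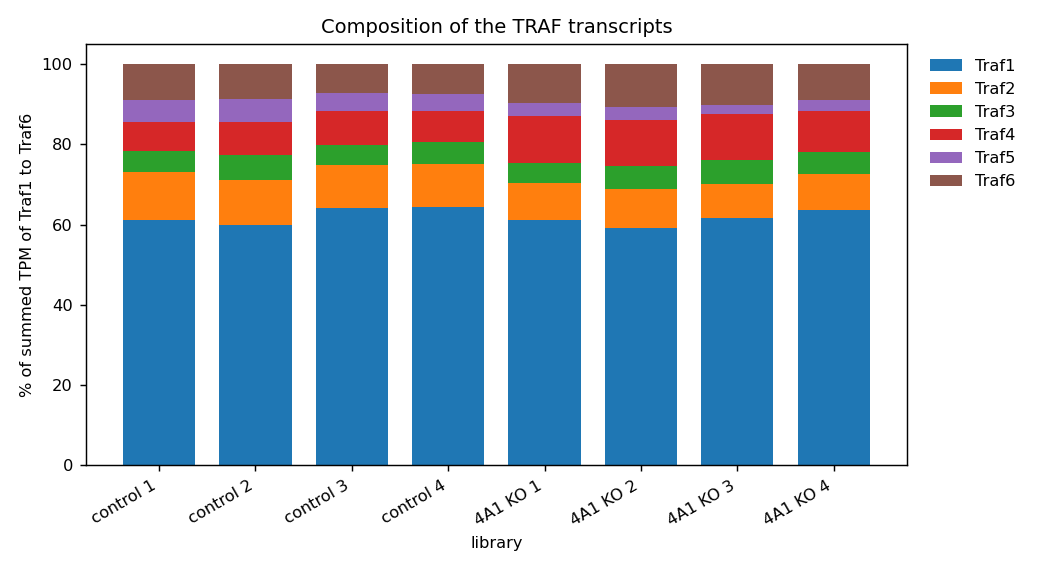
Percent of the summed TPM of Traf1 to Traf6 that each gene made up in each of the 8 libraries. Traf1 fills 59.2 to 64.5% of every bar, the Traf4 section is wider and the Traf5 section narrower in the 4A1 KO libraries.

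Map3k14 (chromosome 11, 103110577 to 103158298, minus strand, 16 exons), the kinase of the non-canonical pathway, was at 16.8, 16.1, 15.4 and 18.7 TPM in control. It was at 12.7, 13.5, 12.4 and 14.3 TPM in 4A1 KO, so that all 4A1 KO libraries lay below all control libraries. The log2 fold change was -0.32 on counts (SE 0.07, adjusted p = 0.00345) and -0.29 on TPM (SE 0.07, adjusted p = 0.0164), under the size for a call. On counts the adjusted p stayed under 0.05 in each of 11 other fits, and on TPM in 5 of 8, with 0.0698 as the highest. The ratio of Map3k14 to Traf3 TPM was 0.663, 0.573, 0.564 and 0.590 in control and 0.473, 0.475, 0.366 and 0.441 in 4A1 KO, without overlap. NIK is controlled mainly through the stability of its protein, which these data do not measure. Map3k14 is on the chromosome of Eif4a1 too, 33.55 Mb away, and 1700028N14Rik, which overlaps it on the same strand, had 11 to 21 reads per library. Of the canonical Map3k14 transcript 6.53% was shared in runs of 50 bases with 1700028N14Rik and with the antisense gene Gm34823, which was not analysed here.

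The cIAP genes are neighbours on chromosome 9, both on the minus strand (Birc2 at 7818227 to 7837120 with 8 exons, Birc3 at 7845790 to 7873229 with 9 exons), and their canonical transcripts share no run of 50 identical bases. Birc3, the inducible member, was at 217, 184, 202 and 198 TPM in control and 219, 218, 241 and 215 TPM in 4A1 KO. The genotypes overlapped only through replicate 1, which was not in the test. Birc3 had a log2 fold change of 0.19 on counts (SE 0.05, adjusted p = 0.0143) and of 0.20 on TPM (SE 0.05, adjusted p = 0.0147). The count result held in 8 of 11 other fits, with adjusted p from 0.00201 to 0.120, and was over 0.05 without the block and without replicate 2 or replicate 3. On TPM it held in 4 of 8 other fits (adjusted p from 0.0153 to 0.0787) and was over 0.05 in the same 3 and without the filter on low TPM. Birc2 was at 49.4 to 69.9 TPM in control and 56.3 to 70.7 TPM in 4A1 KO. For Birc2 the log2 fold change was 0.08 (SE 0.06, adjusted p = 0.267) on counts, and lay between 0.02 without replicate 2 and 0.12 without replicate 3. On TPM it was 0.01 and 0.11 without these replicates. Within each genotype the Birc2 libraries of batch B lay above those of batch A. The ratio of Birc3 to Birc2 TPM overlapped between control (3.53 ± 0.668, SD, n = 4) and 4A1 KO (3.64 ± 0.397).

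The genotype difference was also compared between sexes and between batches, as interaction terms in all 8 libraries. For the 10 genes the adjusted p was 1 for sex and 0.999 for batch. Each side of a factor had only 2 pairs, and the adjustment ran over 14211 genes.

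Around these 10 genes, 4 lists of pathway genes were read in the same fit. The other TRAF-binding receptors had 11 of 14 genes with enough reads to test, of which 2 rose, 2 fell and 7 did not reach a call. This is 36.4% called, against 25.3% of all genes, on 11 genes. The median log2 fold change was -0.21, and -0.10 with DESeq2 normal shrinkage. Tnfrsf13c, the BAFF receptor that shares the TRAF3 and NIK module with CD40, fell from 311 ± 42.6 to 158 ± 9.96 CPM (SD, n = 3; log2 fold change -0.97, SE 0.08, adjusted p = 3.34e-05). Tnfrsf18 (GITR) fell as well, by 0.79 on the log2 scale, at 3.48 CPM in control, although its adjusted p was 0.173 without the block (range 7.18e-04 to 0.173 over 11 other fits). Tnfrsf4 (OX40) rose from 1.90 ± 0.470 to 3.95 ± 0.693 CPM (log2 fold change 1.06, adjusted p = 7.51e-04), and Tnfrsf12a (the TWEAK receptor) rose by 0.93 from 1.17 CPM (adjusted p = 0.00606). The rise of Tnfrsf12a was 0.57 with DESeq2 normal shrinkage, and its adjusted p ranged from 0.00212 to 0.0401 over 11 other fits. It was not called with glmTreat (adjusted p = 0.0901). Receptors were thus called in both directions, and by adjusted p alone 2 were higher and 5 lower, or 63.6% against 53% of all genes.

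Of the 22 TRAF partners and regulators, 2 rose, 2 fell and 18 were not called, or 18.2% called against 25.3% of all genes. By adjusted p alone 4 were higher and 10 lower, or 63.6% against 53% of all genes (26.3% higher, 26.7% lower). The median log2 fold change was -0.18, and -0.11 without replicate 4. Rnf31 (HOIP), the catalytic part of the linear ubiquitin ligase, rose from 48.0 ± 5.11 to 79.0 ± 2.19 CPM (log2 fold change 0.73, SE 0.06, adjusted p = 3.41e-05). Tnfaip3 (A20), a ubiquitin editing inhibitor of NF-κB, rose from 292 ± 106 to 447 ± 43.7 CPM (log2 fold change 0.68, adjusted p = 0.00164), and the adjusted p was 0.0655 without the block (range 1.90e-09 to 0.0655 over 11 other fits). Traip, named for its TRAF interaction and known as a ubiquitin ligase of DNA replication, fell from 33.1 ± 7.45 to 15.3 ± 3.93 CPM (log2 fold change -1.11, adjusted p = 1.65e-05). Tradd, the adaptor of TNF receptor 1, fell by 0.69 on the log2 scale (adjusted p = 1.49e-04). Each of these partners moved one way in every pair of libraries, which is likely for genes picked by a test blocked on the replicate number.

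The next list held 22 kinases and their adaptor subunits, most of which act below the TRAFs, while Irak1 and Irak4 act above TRAF6 and Jak3 acts at cytokine receptors. Of these 2 rose, 4 fell and 16 were not called, or 27.3% called against 25.3% of all genes (median log2 fold change 0.08, and 0.05 without replicate 2). By adjusted p alone 10 were higher and 6 lower, or 72.7% against 53% of all genes. Tab3, which docks the kinase TAK1 to ubiquitin chains, rose from 24.1 ± 1.51 to 38.5 ± 2.26 CPM (log2 fold change 0.68, adjusted p = 1.20e-04). Map3k5 (ASK1) rose by 0.54 (adjusted p = 3.27e-04) and was under 0.5 without replicate 3, at 0.47. Jak3, the kinase of the common cytokine receptor chain that also serves IL4, fell from 110 ± 3.56 to 65.8 ± 9.69 CPM (log2 fold change -0.75, adjusted p = 6.51e-05). The p38 activating kinases Map2k6 and Map2k3 fell by 0.98 and 0.56 on the log2 scale (adjusted p = 1.06e-04 and 3.36e-04), the latter by 0.46 without replicate 2. Map3k8 (TPL2) fell by 0.57 (adjusted p = 0.00232) and by 0.42 without replicate 4.

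Of 18 genes known to be induced through CD40, 3 rose, 2 fell and 13 were not called, with a median log2 fold change of -0.02 that was 0.05, 0.06 and 0.08 without replicates 2, 3 and 4. Relb, the NF-κB subunit of the non-canonical pathway, rose from 120 ± 18.02 to 204 ± 22.9 CPM (log2 fold change 0.77, SE 0.05, adjusted p = 1.69e-05). Lta (lymphotoxin α) rose from 13.1 ± 0.995 to 22.5 ± 1.90 CPM (log2 fold change 0.78, adjusted p = 7.53e-05) and Cd80, a ligand for CD28, from 11.8 ± 3.77 to 20.3 ± 2.53 CPM (log2 fold change 0.83, adjusted p = 0.00197). Ccl22, a chemokine for T cells, fell from 4318 ± 813 to 2108 ± 808 CPM (log2 fold change -1.09, adjusted p = 5.13e-05). Slamf1, a receptor of the SLAM family, fell by 0.63 (adjusted p = 3.24e-04), with an adjusted p of 0.182 without the block (range 3.16e-10 to 0.182 over 11 other fits). The genes of this list therefore went both ways, with 27.8% called against 25.3% of all genes. By adjusted p alone 7 were higher and 6 lower, or 72.2% against 53% of all genes.

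**Figure D5:**
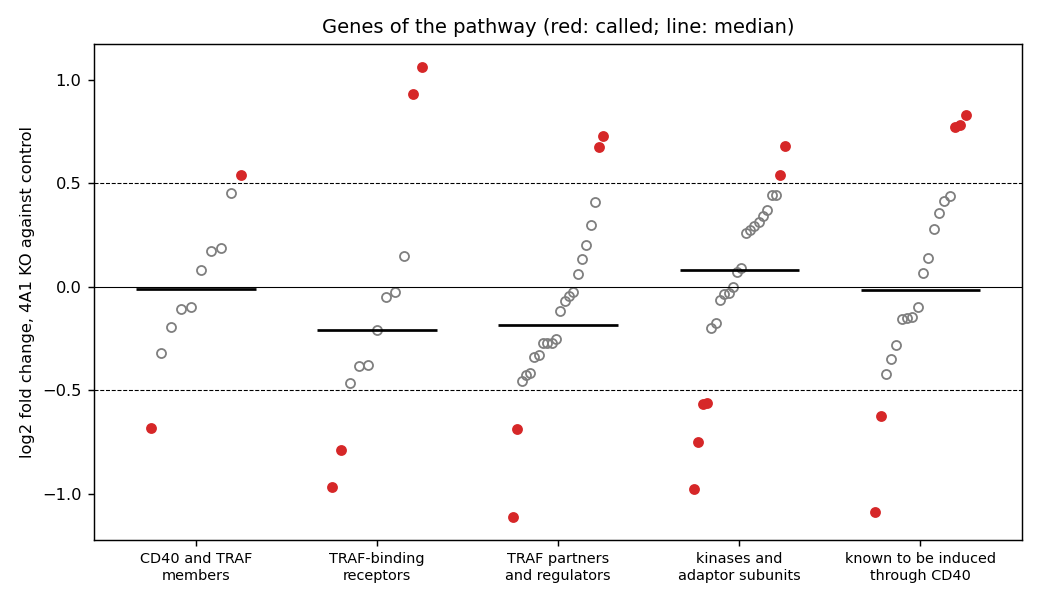
Log2 fold change on counts, 4A1 KO against control, of every tested gene in the 10 CD40 and TRAF genes and in the 4 pathway lists; red points are called genes and the line is the median of the list. Each list has called genes on both sides of 0, and the medians lie between -0.21 and 0.08.

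The genes whose log2 CPM followed Cd40 most closely across the 8 libraries, out of 8382 genes that averaged 10 CPM or more, were Ddost, which encodes a subunit of the oligosaccharyltransferase (Pearson r = 0.97), Klhdc4 (r = 0.97) and Mrps18b, which encodes a mitochondrial ribosomal protein (r = 0.97). For Traf5 they were Glmp (r = 0.99), Sh3glb2 (r = 0.99) and Cd22 (r = 0.99), the last a B cell inhibitory receptor. These correlations are over 8 libraries in which all genes share the genotype, batch and depth, and are given as a description.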

How the data were processed

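The authors trimmed the reads with Trim Galore 0.6.6, mapped them to GRCm39 with HISAT2 2.1.0 and counted them in Seqmonk over merged isoforms of each gene, on the opposing strand, and deposited the raw counts. The authors computed the deposited TPM with StringTie 2.1.1 from the same alignments. The treatment of multi-mapping reads is not given in the sources used here. The tables hold 8 libraries, each from 1 mouse.

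Counts were fitted in R 4.3.3 with edgeR 4.0.16 (filterByExpr by genotype, TMM, quasi-likelihood test, terms for batch, sex and genotype) over 6 libraries, in which batch and sex equal the replicate number. Log2(TPM + 1) was fitted with limma 3.58.1 over genes that averaged 1 TPM or more. Tests were two-sided, p-values were adjusted by Benjamini-Hochberg over all genes, and the scripts were tested on simulated data. The labels give same-numbered libraries the same batch and sex. After subtraction of genotype means, these pairs correlated across genes at 0.364 to 0.499 and other pairs at -0.370 to -0.105. No libraries of a group differed by less than sampling noise. Alternatives were other scalings, filters and pseudocounts, DESeq2 1.42.0 with and without normal shrinkage, glmTreat, no block, all 8 libraries and each replicate left out. Both DESeq2 fits share their adjusted p, and each is counted in the tallies of other fits on counts. The count of the 10 genes past the adjusted p alone was added after seeing the data.

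The genes named are all 10, Eif4a1 and Cd40lg, the called genes of each list with the smallest adjusted p (at most 4 in each direction), and the 3 genes most like Cd40 and the member with the largest change. Genes that overlap Traf5 or Map3k14 were named as well, as were Irak1 and Irak4 for where they act. Marker genes were named after their values were seen. The members and lists were chosen with earlier results of these data known. Coordinates and transcripts are from GENCODE M39 on GRCm39.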

Additional observations from a re-analysis of the deposited data

Results flagged for a closer look

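In 4 of 58 groups of 4 libraries, each the CPM of a gene in a genotype, the most extreme library stood farther from the next than Dixon's 95% limit. Chance flags about 1 in 20 groups, or 2.9 of these. In control Traf3, replicate 4 was at 99.1 CPM and the next at 89.5, a gap of 0.926 of the range. In 4A1 KO Traf4, replicate 1 was at 83.7 CPM and the next at 75.3, a gap of 0.854 of the range. In control Traf6, replicate 1 was at 148 CPM and the next at 131, a gap of 0.838 of the range. In control Map2k6, replicate 2 was at 14.1 CPM and the next at 9.91, a gap of 0.854 of the range. Replicate 1 was not among the 6 libraries of the main tests, but it was in the interaction fits and in the alternative with all 8 libraries.

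In CPM, Traf1 was higher in 4A1 KO in both pairs of batch A (log2 ratios 0.09 and 0.03) and lower in both pairs of batch B (-0.29 and -0.07). The interaction of genotype with batch was -0.23, with an adjusted p of 0.999 (edgeR, 8 libraries). In TPM the ratios were above 0 in all 4 pairs, at 0.20, 0.14, 0.05 and 0.04.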

How the results depend on the processing

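No called value changed sign. For 171 pairs of a count of calls and an alternative, 151 stayed within 1.5 times of the reported count. Against a change above 0.5 (glmTreat), 0 of the 10 genes were called increased and 0 decreased. That test called 640 of all genes increased (4.5%) and 987 decreased (6.94%), and with DESeq2 normal shrinkage 1088 genes were increased. In the lists glmTreat called 1 receptor, 1 partner, 1 kinase and 2 of the CD40-induced genes increased, and 1 receptor, 2 partners, 2 kinases and 1 of the CD40-induced genes decreased. Without the replicate block, 2 receptors, 1 partner, 2 kinases and 3 of the CD40-induced genes were increased, 1 receptor, 2 partners, 4 kinases and 1 of the CD40-induced genes were decreased, and 4 of the 10 genes passed the adjusted p alone, with 35.8% of all genes (53% with the block). The block changed no call of the 10 genes. Without it 9.44% of all genes were called increased and 11.7% decreased. When each replicate was left out, 0 to 2 of the 10 genes were increased (0 without replicate 2, 2 without replicate 4), 2 to 4 partners were decreased (4 without replicate 4), 1 to 3 kinases were increased (1 without replicate 3), and 4 to 7 of the 10 genes passed the adjusted p alone. Of all genes, 9.71%, 9.79% and 12.1% were increased without replicates 2, 3 and 4. With the same replicates left out 11.8%, 12.2% and 14.6% were decreased, and 39.9% to 50.7% passed the adjusted p alone. The cause of these shifts was not tested. The median log2 fold change of the CD40-induced list lay between -0.02 and 0.08. With standard errors of 0.06 on counts, the log2 fold changes of Traf1, Traf2 and Birc2 were not separated from 0.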
